A study of Homo sapiens with 9 samples.

Results

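The clustered protocadherins were taken as the protein-coding genes named PCDHA, PCDHAC, PCDHB, PCDHGA, PCDHGB or PCDHGC with a number, and 53 of the 26871 genes held in all 3 tables of the series met this rule. They comprised 13 alpha genes (PCDHA1 to PCDHA13), 16 beta genes (PCDHB1 to PCDHB16), 12 gamma A genes, 7 gamma B genes and 5 C type genes (PCDHAC1, PCDHAC2, PCDHGC3, PCDHGC4 and PCDHGC5). The symbols and types were those of the deposited tables, and no measured value was used to choose them.

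Clustered protocadherins are cadherin-like adhesion proteins of the neuronal surface, where combinations of isoforms bind the same combination on another membrane and let a neuron tell its own branches from those of other neurons. Each gene of the alpha and gamma clusters has its own promoter and a large first exon that encodes the extracellular, transmembrane and proximal cytoplasmic parts, which is spliced to constant exons shared by the whole cluster, whereas each beta gene is a single coding exon. In most neurons the alpha, beta, gamma A and gamma B promoters are chosen at random in each cell through CTCF, cohesin and DNA methylation, and the C type genes are used more uniformly.

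RNA was sequenced in bulk from human spinal cord organoids (SCOs), a three-dimensional culture of neural tube type grown from the WTC induced pluripotent stem cell line, in 9 libraries, 3 each for vehicle, VPA and VPA + Rapamycin. VPA (valproic acid) is an anti-seizure drug that inhibits histone deacetylases, and Rapamycin inhibits the growth kinase mTOR. The titles of the vehicle libraries give FGF, the growth factor of the medium, and the labels give WT as the genotype and 96 h of exposure in all 9, without doses. The study describes cells that all carry a SOX10-driven reporter and 3 edited clones, some with indels in the other SOX10 allele. By its figure legends, organoids of a clone were pooled for sequencing, and a heatmap column stands for 1 of the 3 clones. The labels repeat replicate numbers 1 to 3 in each condition without saying which clone a number stands for, so the p-values below measure the spread between these libraries. By the study's account this spread includes differences between clones that recur in each condition, and the main test did not pair libraries by clone.

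Libraries held 15290299 to 17417338 counted reads (median 16702150), and 3 reads corresponded to 0.172 to 0.196 CPM (reads on a gene scaled to the library's total, with TMM factors over the 9 libraries). Markers of neural progenitors and neurons were present, with 8 of 8 and 12 of 12 listed genes above 0 and summed levels of 2491 to 3272 CPM and 1685 to 3263 CPM. The neuronal sum spread widely in vehicle, at 1824, 2421 and 3263 CPM in replicates 1, 2 and 3, and was 1685 to 1831 CPM in VPA.

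All 53 genes lie on chromosome 5 (GRCh38) and are read from its plus strand. The alpha cluster spans 140786136 to 141012347, the beta cluster 141051135 to 141249365 and the gamma cluster 141330571 to 141512981. The promoters of the family carry a short element around the bases CGCT that binds CTCF in many members. Matches to such letters are shown here for members called in either direction and for abundant members that were not called. PCDHGB5, a low member called in no comparison of conditions, is shown beside its neighbour PCDHGB4 and was picked after its values were seen. RefSeq promoters (GRCh38.p14) were matched by symbol for 47 of the 53 members, of which 42 had a start within 100 bases of a GENCODE v29 start. Those not matched were PCDHA3, PCDHA13, PCDHB6, PCDHB11, PCDHGA12 and PCDHGC5. In the 250 bases before the start, ATGTCGCT was present in 9 of 11 alpha genes and 0.22% of all 27305 gene symbols with a promoter. GGTGGCGCT was present in 12 of 14 beta genes and 0.516% of all. GNGNCGCT, with N for any base, was present in 11 of 11 gamma A, 6 of 7 gamma B and 2 of 4 C type genes, and in 19.2% of all. A match to so loose a pattern, as in PCDHGC4, does not show that the stretch is the element of the family. Both strands were searched, all of these contain CGCT, which 67.2% of all promoters hold, and the letters were chosen after the promoters had been seen. The start meant here is that of RefSeq. The stretches of PCDHA4 and PCDHB14 lie after the gene starts of the deposited counts (140806929 and 141222932), so within the genes as counted. In the stretches below, each on the plus strand of chromosome 5, the matched letters are in capitals.
PCDHA4 (chr5:140806975-140807003): ggtttggagccacatgATGTCGCTcttta
PCDHA6 (chr5:140827893-140827921): cttttggagccgcatgATGTCGCTgtcta
PCDHA7 (chr5:140834168-140834196): acatgatggccacatgATGTCGCTcttta
PCDHA8 (chr5:140841126-140841154): cttttgaagccacatgATGTCGCTgtcta
PCDHA12 (chr5:140875240-140875268): cataatcagtcacatgATGTCGCTctaca
PCDHB2 (chr5:141094539-141094568): ctcggaagagacgcggGGTGGCGCTgcagc
PCDHB3 (chr5:141100388-141100417): ctgcaagcgaacgcatGGTGGCGCTgttga
PCDHB4 (chr5:141121718-141121747): ctcaatcaagacgcagGGTGGCGCTgcagg
PCDHB14 (chr5:141223258-141223287): aaacatggagacacatGGTGGCGCTacagg
PCDHB15 (chr5:141245309-141245338): agcaaagacaacgcatGGTGGCGCTgcagg
PCDHGA10 (chr5:141412927-141412955): cttcttaggactctgaGCGCCGCTgttca
PCDHGB4 (chr5:141387613-141387641): ctagtgctgactctggGCGCCGCTgttgg
PCDHGB5 (chr5:141397859-141397887): ctagtgctgactctggGCGCCGCTgttgg
PCDHGB6 (chr5:141407920-141407948): cgcacggagcctctggGCGCCGCTgtcgg
PCDHGC4 (chr5:141484948-141484976): tattggctgagcccggGAGCCGCTgtctg

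Where the class element was found, its first base lay 42 to 85 bases before the start in alpha genes (median 52), 16 to 84 in beta genes (median 66.5), 43 to 99 in gamma A genes (median 50) and 62 to 203 in gamma B genes (median 70.5). PCDHGB4 and PCDHGB5, neighbours of the same class, had the same 29 letters, and the match ran unbroken over 54 bases. PCDHA8 and PCDHA12, which differed in the direction of their change under VPA, were equal at 20 of 29 positions, and PCDHB3 and PCDHB4, both lowered, at 19 of 30. The fixed letters of the element are equal within a class by the way the stretches were cut, and no other pairs were compared. A match describes the letters only and not whether a factor bound there.

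Counts of these genes are uncertain where members share sequence. Each alpha gene shared 2866 to 3428 exonic bases with other members and each gamma gene 2181, apart from PCDHGB4 and PCDHGA8 with 4447, while beta genes shared 0. Of the 50-base words of the first exon, a median of 10.6% in alpha, 14.4% in beta, 5.72% in gamma A and 11.3% in gamma B genes also occurred in a transcript of another PCDHA, PCDHB or PCDHG gene. The share was 0% in the C type genes. It was 25.4% in PCDHA6, 25.9% in PCDHA7 and 28% in PCDHA8, and 58.5% in PCDHGB4, mostly with PCDHGA8. Of the 53 members, 5 had a count of 0 in at least 1 library, so reads on the shared exons were not given to every member. Of the members, 19 also overlap annotated antisense genes, of which the 5 held in all 3 tables had mean counts of at most 6.4. The overlaps include 435 bases of PCDHA13, 577 of PCDHA12, 620 of PCDHB2 and 356 of PCDHB3, and whether counting used the strand is not given in the sources used here.

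In vehicle the family was read unevenly, with a few members well above the rest in the beta and gamma clusters and a more gradual order in alpha. Levels between genes were compared as CPM per kb of the exonic bases that no other gene covers. Reads from shared exons, or from stretches that overlap antisense genes, stay in the numerator if they were assigned. Such antisense stretches include 577 bases of PCDHA12, so its place among the alpha genes depends on this choice of length. PCDHGB6 was the highest at 20.2 ± 3.11 CPM per kb (SD, n = 3), followed by PCDHB2 at 13.7 ± 3.11, PCDHGC4 at 11.0 ± 1.51 and PCDHGA10 at 7.28 ± 0.956. PCDHB2 and PCDHGC4 differed by less than the SD of PCDHB2. PCDHGB7 came next at 5.65 ± 1.22, then PCDHGB4 at 4.22 ± 3.10 with a spread nearly as large as its mean, and the leading alpha gene was PCDHA12 at 3.72 ± 0.177. PCDHGC4, a C type isoform that has been tied to neuronal survival, thus stood far above the other C type genes. Of these, PCDHGC3 had 3.20 ± 0.498, PCDHAC1 0.646 ± 0.198, PCDHGC5 0.581 ± 0.106 and PCDHAC2 0.468 ± 0.359 CPM per kb.

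**Figure D1:**
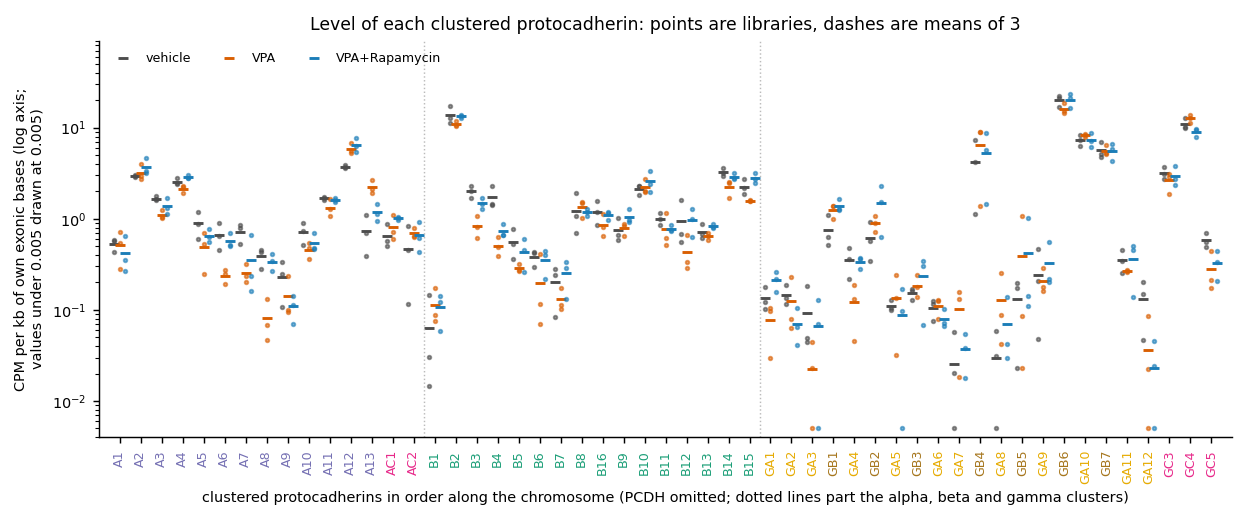
Level of each of the 53 genes in CPM per kb of its own exonic bases (log axis) in the order along the chromosome, for vehicle, VPA and VPA + Rapamycin; points are libraries and dashes the means of 3. PCDHGB6, PCDHB2 and PCDHGC4 stand highest, and most gamma A genes lie lowest.

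As plain CPM over the 3 vehicle libraries, PCDHA4 made up 34.7% of the alpha cluster, PCDHB2 41.1% of the beta cluster and PCDHGB6 45.5% of the gamma cluster. Plain CPM is not scaled to length, and PCDHA4 has the most own exonic bases of the alpha genes (10574). Per kb PCDHA4 stood at 2.54 CPM in vehicle, under PCDHA12 at 3.72 and PCDHA2 at 2.94. The 3 leading genes of the gamma cluster, PCDHGB6, PCDHGA10 and PCDHGC4, held 76.5% of it. At the other end, 8 of the 12 gamma A genes and PCDHGB3 had a mean count under 10 over the 9 libraries, as few as 0 to 9 reads for PCDHGA7 and for PCDHGA12. In all, 44 members reached a mean of 10 reads and 13 a mean of 100, and 42 passed edgeR's filter in all 3 comparisons and 7 in none.

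VPA against vehicle asked what VPA changed in the organoids. It lowered a run of neighbouring alpha genes and several beta genes, raised the last alpha genes, and gave no call in the gamma cluster. Of 43 members tested, 2 were raised and 6 lowered at an adjusted p of at most 0.05 from edgeR's quasi-likelihood test. Across all 17360 genes tested, 16.4% were raised and 15.7% lowered, 32.1% in either direction, so the 18.6% of members called lay under the background. Only 13 of the 53 members averaged at least 100 reads, and the part of low counts in this share was not tested. The median log2 fold change was -0.33 over the members tested and 0.00 to the second decimal over all genes, with 15 member estimates above 0 and 28 below.

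Among the alpha genes, PCDHA8 had 20, 17 and 12 reads in vehicle replicates 1, 2 and 3 and 3, 2 and 6 in VPA. Every VPA library was lower than every vehicle library, although in VPA it held only a few reads. Its log2 fold change was -2.20 (SE 0.57, adjusted p = 0.0134 from edgeR). Its neighbour PCDHA7 had 26, 38 and 37 reads in vehicle and 10, 15 and 12 in VPA, a log2 fold change of -1.52 (SE 0.41, adjusted p = 0.0149 from edgeR). PCDHA6, next on the other side, had 36, 45 and 24 reads against 15, 13 and 11 (log2 fold change -1.50, SE 0.41, adjusted p = 0.0174 from edgeR). These 3 genes lie side by side, their vehicle and VPA libraries did not overlap, and they are also the alpha genes with the largest share of words in common with other members. The calls of each were lost without vehicle replicate 2 and without 2 of the 3 VPA replicates in turn, with adjusted p between 0.0505 and 0.0867 in edgeR. All 3 encode alternative extracellular ends of the same alpha protein.

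At the other end of the array PCDHA13 had 38, 22 and 13 reads in vehicle and 92, 70 and 69 in VPA. The lowest VPA library was above the highest vehicle library, at a mean level of 4.58 ± 0.819 CPM (SD, n = 3) in VPA. This change, 1.59 on the log2 scale (SE 0.37, adjusted p = 0.00746 from edgeR), passed under all 13 alternatives, with adjusted p from 0.000173 to 0.0388. PCDHA12, the gene just before it, had 133, 112 and 116 reads in vehicle and 186, 222 and 185 in VPA, again without overlap (log2 fold change 0.64, SE 0.18, adjusted p = 0.0196 from edgeR). It is named because it was called, after its values were seen, and its call was lost without vehicle replicate 2 (adjusted p = 0.0623) and without VPA replicate 2 (0.108). As a share of the alpha cluster, PCDHA12 went from 9.65% ± 0.599 in vehicle to 16.5% ± 1.74 in VPA, and PCDHA13 from 1.95% ± 0.952 to 6.43% ± 1.13 (SD, n = 3 each). PCDHA4, the most abundant alpha gene by count, had 443, 382 and 474 reads in vehicle and 405, 378 and 354 in VPA (log2 fold change -0.27, SE 0.14, adjusted p = 0.154 from edgeR), and its libraries overlapped. Of the 13 alpha genes, all tested, 5 were called (38.5%, and 32.1% of all genes) and 10 had an estimate below 0.

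Among the beta genes, each a single exon with a truncated cytoplasmic tail, PCDHB4 changed most firmly. It had 91, 85 and 142 reads in vehicle and 31, 24 and 42 in VPA. Its level went from 6.59 ± 1.91 to 1.91 ± 0.455 CPM (SD, n = 3 each), with a log2 fold change of -1.79 (SE 0.30, adjusted p = 0.0014 from edgeR). PCDHB3, which lies before it, had 86, 93 and 111 reads in vehicle and 31, 52 and 43 in VPA, a log2 fold change of -1.28 (SE 0.28, adjusted p = 0.0056 from edgeR). Vehicle and VPA libraries did not overlap for either gene, and both calls passed under all 13 alternatives. PCDHB14 had 233, 258 and 239 reads in vehicle and 193, 128 and 206 in VPA (log2 fold change -0.56, SE 0.19, adjusted p = 0.0437 from edgeR). This call was lost with the replicate block (adjusted p = 0.0574), without vehicle replicate 2 and without each VPA replicate, with adjusted p up to 0.182. PCDHB12 had 45, 33 and 100 reads against 43, 18 and 23, overlapping, with a log2 fold change of -1.16 that did not pass (SE 0.46, adjusted p = 0.0777 from edgeR). PCDHB2, the leading beta gene, had 665, 679 and 975 reads against 695, 598 and 659, with an estimate of -0.33 (SE 0.16, adjusted p = 0.134 from edgeR). All 16 beta genes were tested, with 3 lowered, 0 raised (18.8% called, and 32.1% of all genes) and 12 estimates below 0. In the counts of raised beta genes edgeR and DESeq2 gave 0, and 6 beta genes had an unadjusted p under 0.05.

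The gamma cluster gave 0 calls among 12 genes tested with edgeR and also with DESeq2, with 2 at an unadjusted p under 0.05. With all 9 libraries in a single fit and the replicate number as a block, an alternative added after seeing the data, PCDHGB4 and PCDHGB6 were called (adjusted p = 0.0325 and 0.0416 from edgeR). The most abundant member, PCDHGB6, had 1660, 1164 and 1675 reads in vehicle and 1455, 1123 and 1166 in VPA. These libraries overlapped, and the log2 fold change was -0.34 (SE 0.14, adjusted p = 0.0973 from edgeR). PCDHGA10 had 619, 497 and 454 reads against 640, 599 and 625 (log2 fold change 0.17, SE 0.13, adjusted p = 0.328 from edgeR). A pair of low gamma B genes had estimates above 0, PCDHGB1 with 22, 34 and 17 reads against 34, 46 and 49, and PCDHGB2 with 15, 36 and 24 against 46, 30 and 41. Their log2 fold changes of 0.73 (SE 0.38) and 0.54 (SE 0.41) did not pass, with adjusted p of 0.161 and 0.335 from edgeR. PCDHGB7 had 239, 298 and 217 reads in vehicle and 243, 291 and 253 in VPA, an estimate of -0.02 (SE 0.18).

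None of the 5 C type genes was called in this comparison with edgeR or DESeq2, and 1 had an unadjusted p under 0.05. PCDHGC4 had 600, 435 and 450 reads in vehicle and 603, 513 and 669 in VPA (log2 fold change 0.19, SE 0.14, adjusted p = 0.316 from edgeR). PCDHGC3, which acts on dendrite growth, had 205, 155 and 144 reads against 170, 99 and 166 (-0.29, SE 0.22, adjusted p = 0.348). PCDHGC5 had 33, 24 and 22 reads against 10, 8 and 22, with the largest estimate of the 5 at -1.06 (SE 0.46, adjusted p = 0.0982 from edgeR). PCDHAC1 had 60, 35 and 33 reads against 41, 72 and 52 (0.30, SE 0.34). PCDHAC2, which is known from the spacing of serotonergic axons, had 45, 22 and 6 reads against 35, 33 and 44 (0.55, SE 0.53), so that vehicle varied more than VPA.

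**Figure D2:**
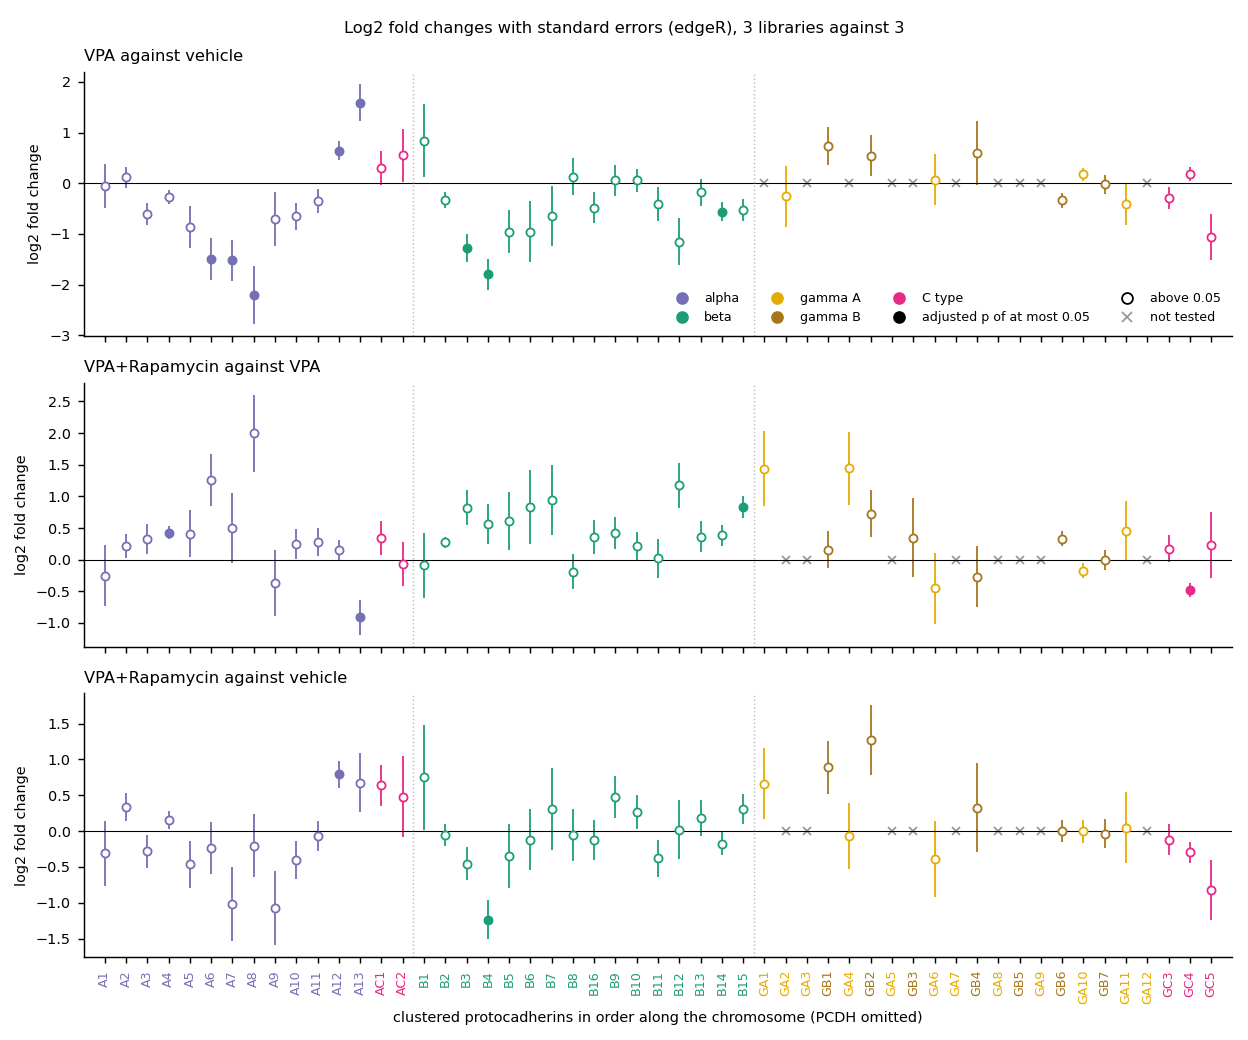
Log2 fold changes with standard errors from edgeR for each gene in the order along the chromosome, in the 3 comparisons (panels); filled points have an adjusted p of at most 0.05, open points do not and crosses were not tested. In VPA against vehicle the filled points are PCDHA6 to PCDHA8, PCDHB3, PCDHB4 and PCDHB14 below 0 and PCDHA12 and PCDHA13 above it.

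Summed over members, the beta level differed more between vehicle and VPA than the alpha and gamma levels, by -0.43, -0.12 and -0.04 on the log2 scale of the mean sums. The beta sum was 95.8, 117 and 139 CPM in vehicle and 94.7, 78.7 and 87.7 CPM in VPA, the alpha sum (with PCDHAC1 and PCDHAC2) 77.2, 75.7 and 79.7 against 71.1, 74.1 and 68.6, and the gamma sum 209.9, 199.7 and 202.0 against 201.7, 195.5 and 197.8. VPA libraries were below every vehicle library in all 3 sums except gamma, where VPA replicate 1 lay between vehicle libraries. In the beta sum and in the summed neuronal markers alike, vehicle replicate 3 was highest and vehicle replicate 1 lowest. Of the 12 neuronal markers tested, 6 were lowered by VPA and 0 raised (50% called, and 32.1% of all genes). ELAVL4 was among those lowered, from 210.4 ± 56.9 to 92.6 ± 8.71 CPM (SD, n = 3 each, log2 fold change -1.20, adjusted p = 0.000508 from edgeR). Of the other marker lists, 1 of 8 progenitor genes was raised and 1 lowered, 2 of 8 mesenchymal genes were raised, with COL1A2 at a log2 fold change of 2.12, and 2 of 7 neural crest genes tested were raised and 4 lowered. Among the last, SOX10, the crest factor at whose locus the reporter sits, had 347, 248 and 230 reads in vehicle and 5, 10 and 9 in VPA (log2 fold change -5.15, adjusted p = 2.52e-06 from edgeR). The 8 mesenchymal markers summed to 139 to 295 CPM in vehicle and 559 to 715 in VPA, and the 8 crest markers to 399 to 484 and 392 to 417. COL1A1 and COL1A2 held most of the mesenchymal sum in VPA, at means of 270 and 320 of 617 CPM. Of the 8 mesenchymal estimates 4 were above 0 and 4 below, with a median log2 fold change of -0.01. Without vehicle replicate 1, 12 members were called in this comparison, without vehicle replicate 2, 3, without VPA replicate 2, 4, and without VPA replicate 3, 5. The shares of all genes called in these fits are not given here. The part of these cell type markers in the member values was not tested, and in bulk RNA fewer neurons and less RNA per neuron cannot be told apart.

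**Figure D3:**
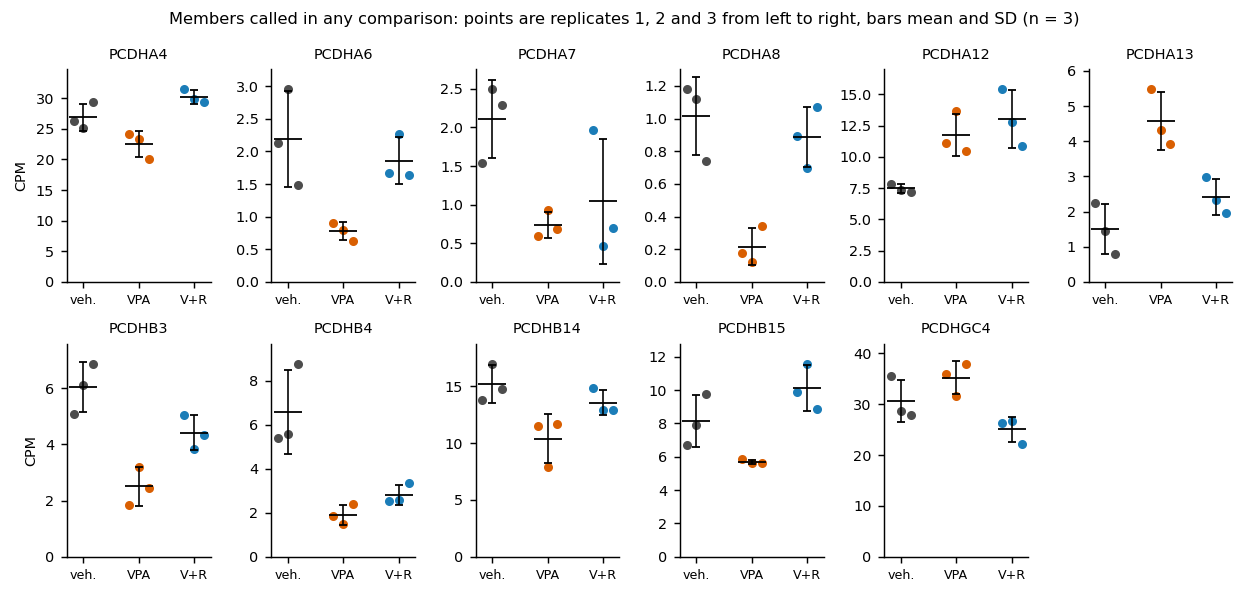
Level in CPM of the 11 genes called in any of the 3 comparisons, by condition (veh. for vehicle, V+R for VPA + Rapamycin); points are replicates 1, 2 and 3 from left to right, bars the mean and SD of 3. VPA libraries of PCDHA6, PCDHA7, PCDHA8, PCDHB3, PCDHB4 and PCDHB14 lie below all their vehicle libraries, and those of PCDHA12 and PCDHA13 above.

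VPA + Rapamycin against VPA asked what Rapamycin changed while VPA was present. It raised PCDHB15 and PCDHA4 and lowered PCDHGC4 and PCDHA13, 2 in each direction among 45 members tested. Across all 17317 genes tested, 3.01% were raised and 3.73% lowered, 6.74% in all, beside 8.89% of the members. The median log2 fold change was 0.33 over the members and 0.00 over all genes, with 34 estimates above 0 and 11 below. This comparison and the preceding one share the VPA libraries, so opposite signs in them are not independent.

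PCDHB15 had 98, 91 and 99 reads in VPA and 166, 199 and 141 in VPA + Rapamycin. The groups did not overlap, and the level went from 5.70 ± 0.135 to 10.1 ± 1.37 CPM (SD, n = 3 each). On the log2 scale it was higher by 0.83 (SE 0.18, adjusted p = 0.00896 from edgeR). In vehicle the gene had 113, 120 and 158 reads, above VPA and overlapping VPA + Rapamycin. PCDHA4 had 405, 378 and 354 reads in VPA and 531, 512 and 467 in VPA + Rapamycin, without overlap (log2 fold change 0.43, SE 0.11, adjusted p = 0.0203 from edgeR). PCDHGC4 had 603, 513 and 669 reads in VPA against 442, 460 and 353 in VPA + Rapamycin, and went from 35.2 ± 3.25 to 25.1 ± 2.49 CPM (SD, n = 3 each). With a log2 fold change of -0.49 (SE 0.11, adjusted p = 0.0117 from edgeR) it was the only C type gene called in any comparison. PCDHA13 had 92, 70 and 69 reads in VPA and 50, 40 and 31 in VPA + Rapamycin (log2 fold change -0.91, SE 0.27, adjusted p = 0.0491 from edgeR). All 4 calls were lost in another fit. With all 9 libraries in a single fit edgeR called 0 of 47 members, with 12 at an unadjusted p under 0.05, while DESeq2 on the 6 libraries called 3, without PCDHA13 (adjusted p = 0.0579). In the single fit the adjusted p was 0.0728 for PCDHB15, 0.111 for PCDHGC4, 0.129 for PCDHA4 and 0.251 for PCDHA13. Loss of calls in that fit was not particular to the members. It also called 0 of the 24 regulators, 13 partners, 10 other protocadherins and 26 flanking genes described below, and 1 of 8 progenitor markers. The share of all genes called in that fit is not given here. Only PCDHB15 was called without VPA replicate 3 and without VPA + Rapamycin replicate 3.

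The alpha genes that VPA had lowered had estimates above 0 that did not pass the test here. PCDHA6 had 28, 39 and 26 reads in VPA + Rapamycin (log2 fold change 1.26, SE 0.41, adjusted p = 0.071 from edgeR), PCDHA8 15, 12 and 17 (2.00, SE 0.61, adjusted p = 0.057) and PCDHA7 33, 8 and 11 (0.50, SE 0.55, adjusted p = 0.649). Among these 3 only PCDHA7 overlapped the VPA libraries. PCDHB12 reached 65, 42 and 79 reads (log2 fold change 1.18, SE 0.36, adjusted p = 0.0554), and was called with the replicate block (adjusted p = 0.0187) and in 5 of 13 alternatives in all. PCDHB3 had 85, 66 and 69 reads (0.82, SE 0.27, adjusted p = 0.0806) and PCDHB4 43, 44 and 53 (0.56, SE 0.32, adjusted p = 0.321), all above their VPA libraries. PCDHGB6 had 1791, 1305 and 1541 reads (0.33, SE 0.11, adjusted p = 0.0854), and was called with the replicate block (adjusted p = 0.0244).

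VPA + Rapamycin against vehicle asked what differed under both drugs together. PCDHA12 was raised and PCDHB4 lowered, and these were the 2 calls among 44 members tested (4.55%). Across all 17383 genes tested, 9.81% were raised and 9.22% lowered, 19.0% in either direction. PCDHA12 had 260, 220 and 172 reads in VPA + Rapamycin, all above the vehicle libraries, a log2 fold change of 0.79 (SE 0.19, adjusted p = 0.0156 from edgeR). PCDHB4 had 43, 44 and 53 reads, all below the vehicle libraries, a log2 fold change of -1.23 (SE 0.28, adjusted p = 0.0125 from edgeR). Both calls were lost without VPA + Rapamycin replicate 1 (adjusted p = 0.081 and 0.0593) and without VPA + Rapamycin replicate 2 (0.0529 and 0.0547), and that of PCDHA12 also without vehicle replicate 2 (0.0574). PCDHA13, with 50, 40 and 31 reads, overlapped the vehicle libraries (38, 22 and 13 reads), and its log2 fold change of 0.68 did not pass (SE 0.41, adjusted p = 0.273 from edgeR). PCDHAC1 had 72, 71 and 63 reads, above every vehicle library, with an estimate of 0.64 (SE 0.29, adjusted p = 0.145), and PCDHGB2 99, 28 and 63 with 1.27 (SE 0.48, adjusted p = 0.0906).

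**Figure D4:**
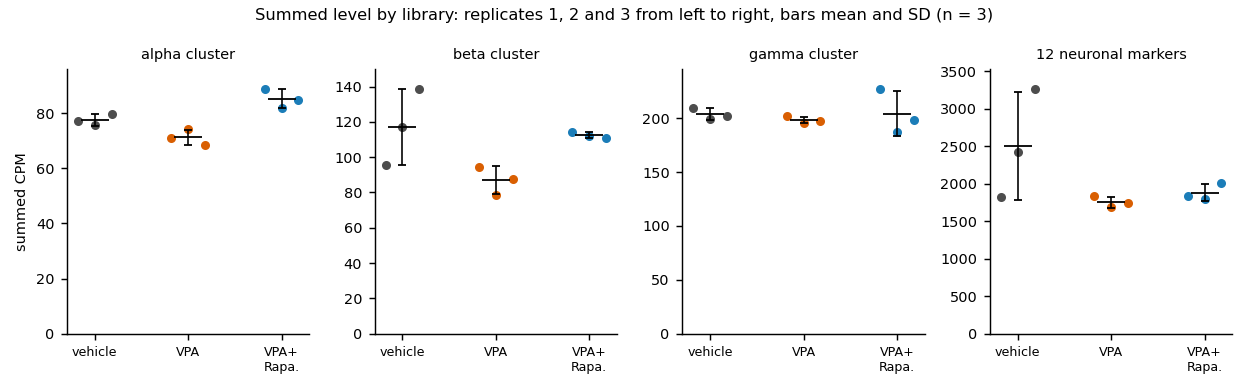
Summed level in CPM of the alpha, beta and gamma clusters and of the 12 neuronal markers in each library; points are replicates 1, 2 and 3 from left to right, bars the mean and SD of 3. The alpha and beta sums of VPA lie below those of vehicle, and the gamma sum spreads between 187 and 227 CPM.

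In VPA + Rapamycin the alpha sum was 88.8, 82.0 and 85.0 CPM, above every library of both other conditions, the beta sum 114, 112 and 111 CPM, and the gamma sum 227, 187 and 198 CPM. The 12 neuronal markers summed to 1798 to 2004 CPM in these libraries, and 3 of them were raised against VPA and 3 lowered against vehicle. Of the 8 mesenchymal markers, which summed to 244 to 371 CPM, 5 were lowered against VPA and 0 raised, and against vehicle 1 of 7 tested was lowered. Of the 8 progenitor markers 2 were lowered against VPA, and 1 was raised and 2 lowered against vehicle. Of 7 crest markers tested 2 were raised and 1 lowered against VPA, and 1 was raised and 2 lowered against vehicle. Across all genes tested, 6.74% were called against VPA and 19.0% against vehicle. The calls against VPA fell to 0 of the neuronal, mesenchymal and crest markers and 1 of the progenitor markers with all 9 libraries in a single edgeR fit, with 1, 4, 3 and 2 at an unadjusted p under 0.05, while DESeq2 on the 6 libraries called 2, 4, 3 and 2.

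Promoter choice in this family is known to be passed on by dividing cells, and the replicate numbers, where they stand for clones, would carry it. The replicate number was therefore tested across the 9 libraries, with the condition as a term. Of 47 members tested 1, PCDHGB4, was called with edgeR and with DESeq2, and 4 had an unadjusted p under 0.05 (8.51%, and 3.86% of all genes). Across all 18008 genes tested only 32 were called, which is 0.178%, and PCDHGB4 ranked 3 by p.

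PCDHGB4, a gamma B gene, had 47, 57 and 60 reads in the libraries numbered 1 of vehicle, VPA and VPA + Rapamycin, 274, 354 and 373 in those numbered 2, and 167, 390 and 221 in those numbered 3. All 3 libraries numbered 1 lay below all 6 others. The F statistic on the 2 number terms was 83.8 (adjusted p = 3.49e-05 from edgeR), and leaving out any library gave an adjusted p from 1.12e-08 to 0.00057. PCDHGB5, its neighbour of the same class with the same promoter letters, ran the other way in the treated libraries. It had 9, 48 and 46 reads in the libraries numbered 1, 7, 1 and 5 in those numbered 2, and 1, 4 and 6 in those numbered 3. It was too low for edgeR's filter, so it is named after its values were seen. It was called for the number when no filter was applied (adjusted p = 5.27e-05), without vehicle replicate 1 (0.0400) and without vehicle replicate 2 (0.0422). Of the words of the first exon of PCDHGB5, 19.5% also occur in PCDHGB4, so part of the reads of each can belong to the other. PCDHGA8, which shares most with PCDHGB4, had 0 to 19 reads.

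**Figure D5:**
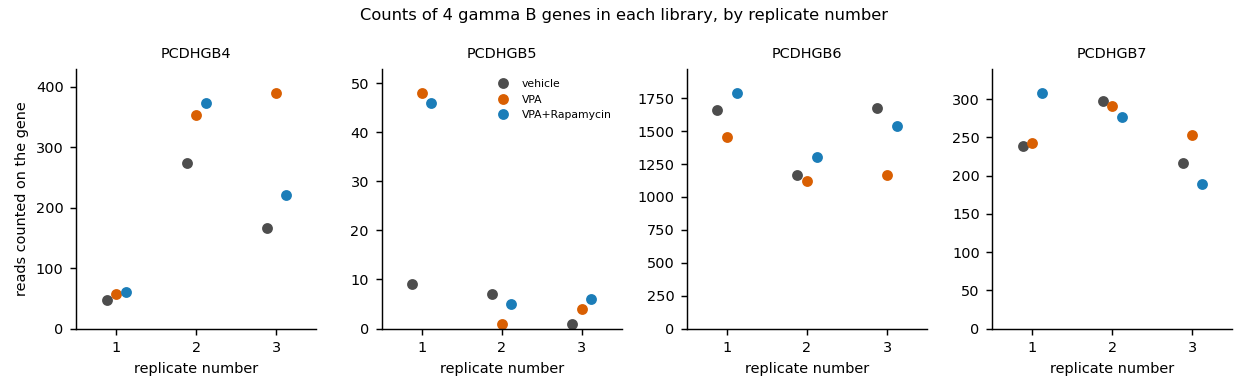
Reads counted on PCDHGB4, PCDHGB5, PCDHGB6 and PCDHGB7 in each library by replicate number, coloured by condition. PCDHGB4 has 47 to 60 reads in the libraries numbered 1 and 167 to 390 in the others, while PCDHGB5 has 46 and 48 in the treated libraries numbered 1 and 1 to 9 elsewhere.

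The next members by p did not pass, PCDHGB6 with an F of 5.48 (adjusted p = 0.982 from edgeR), PCDHB12 with 4.06, PCDHGC3 with 4.02, PCDHA13 with 3.29 and PCDHGB7 with 3.15. PCDHGB6 had its lowest count of each condition in the library numbered 2, at 1164, 1123 and 1305 reads. Because PCDHGB4 differed between replicates by this much, its own contrasts between conditions were wide, with a log2 fold change of 0.60 (SE 0.63, adjusted p = 0.498) in VPA against vehicle. With the replicate block the log2 fold change was 0.57 and the adjusted p 0.0658. The number cannot be told apart from a clone, a culture or any other step that went with it.

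Genes known to act on these promoters, a list of 24 around CTCF, cohesin and chromatin silencing, held 2 raised and 5 lowered by VPA (29.2% called, and 32.1% of all genes). CTCF itself was at 109 ± 5.15 CPM in vehicle, against 106 ± 6.54 under VPA (SD, n = 3 each; log2 fold change -0.05, adjusted p = 0.73 from edgeR). The cohesin subunit STAG2 fell from 239 ± 20.6 to 147 ± 9.07 CPM (log2 fold change -0.71, adjusted p = 0.000595), and the cohesin loaders NIPBL and MAU2 changed by -0.55 and -0.42 (adjusted p = 0.00626 and 0.0119). The other lowered genes were RAD21, the ring's kleisin, at -0.36, and SETDB1, a histone H3 lysine methyltransferase, at -0.43, and the raised ones were SMC1A at 0.38 and HDAC1 at 0.32. Rapamycin on top of VPA gave 0 calls in this list with edgeR and 1 with DESeq2, with 4 at an unadjusted p under 0.05 in edgeR. Of all genes, 6.74% were called there with edgeR. Against vehicle, 2 of the list were lowered under both drugs, STAG2 at -0.62 and RAD21 at -0.40 (8.33% called, and 19.0% of all genes).

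The proteins through which protocadherins act inside the cell, 13 kinases, scaffolds and actin regulators, held 1 raised and 3 lowered by VPA (30.8% called, and 32.1% of all genes). MARCKS, a membrane-bound actin regulator, changed by -0.59 (adjusted p = 0.00412 from edgeR), ABI2 of the WAVE complex by -0.51, the focal adhesion kinase PTK2 by -0.30 and CYFIP2, another WAVE subunit, by 0.38. MARCKS was raised in VPA + Rapamycin against VPA (0.24, adjusted p = 0.0411 from edgeR), the 1 call of the list there with edgeR and with DESeq2. This was 7.69% of the list, beside 6.74% of all genes. The single fit of 9 libraries gave 0 calls, with 1 at an unadjusted p under 0.05. ABI2 was lowered against vehicle (-0.49, adjusted p = 0.0109 from edgeR), the 1 call of the list there (7.69%, and 19.0% of all genes).

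Protocadherins outside the clusters, each a gene of its own, were called in 5 of 10 tested members under VPA (50%, and 32.1% of all genes). PCDH1 rose from 9.85 ± 1.42 to 24.7 ± 1.98 CPM (SD, n = 3 each; log2 fold change 1.32, adjusted p = 0.000204 from edgeR), PCDH15 by 0.74 and PCDH17 by 0.56, and PCDH12 and PCDH7 changed by -1.30 and -0.62. In VPA + Rapamycin against VPA, 2 were raised (PCDH8 by 0.34 and PCDH19 by 0.32) and 3 lowered (PCDH10, PCDH15 and PCDH17, the last by -0.46). That is 50% of the 10 tested, beside 6.74% of all genes. With all 9 libraries in a single fit edgeR called 0 of these 10, with 4 at an unadjusted p under 0.05, and DESeq2 on the 6 libraries called 5. Against vehicle PCDH1 and PCDH15 were raised under both drugs, by 1.37 and 0.39 (20% called, and 19.0% of all genes).

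Within 500 kb of the clusters or between them, 25 of 29 other protein-coding genes were tested in VPA against vehicle, with 5 raised and 4 lowered (36% called, and 32.1% of all genes). RELL2 was raised by 1.55 (adjusted p = 0.00037 from edgeR), and PCDH1 and PCDH12 of the preceding list lie there too. TAF7, which lies between the beta and gamma clusters, had 231 ± 23.0 CPM in vehicle and 214 ± 16.7 in VPA (log2 fold change -0.12, adjusted p = 0.418). In VPA + Rapamycin against VPA edgeR called 0 of 26 and DESeq2 also 0, with 5 at an unadjusted p under 0.05, beside 6.74% of all genes called. Against vehicle 3 were raised and 0 lowered (12% called, and 19.0% of all genes). The 5 pseudogenes of the clusters were too low to be tested.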

How the data were processed

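Poly-A RNA of 9 libraries was sequenced by the authors, who aligned and counted it, per the submitters' processing notes, with HISAT2 2.0.5 and featureCounts 1.5.0-p3. The strand setting is not given in the sources used here. The deposited counts are whole reads per gene without normalization, in 1 table for each pair of conditions, with GRCh38 coordinates that equal GENCODE v29 for all 1430 genes of chromosome 5. Columns of normalized values, FPKM and the authors' fold changes and p-values were not used.

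Each pair was compared within its own table, 3 libraries against 3, with edgeR 4.0.16 in R 4.3.3 (TMM, filterByExpr, quasi-likelihood F test, Benjamini-Hochberg over all genes tested, threshold 0.05). Each SE was computed as the size of the log2 estimate over the square root of its F. The replicate number was tested on 2 coefficients over all 9 libraries, with the condition as a term. An exact permutation test cannot give a two-sided p under 0.1 here. The scripts were tested on simulated data.

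The study's methods used 3 clones, and the column names repeat the same 3 codes in each condition, but no label says which clone a code is. Same-numbered libraries were not taken as pairs in the main test, and not every pair of them correlated above 0.1, over all genes or over the members. Such correlations cannot decide whether the libraries are paired, since a difference carried by few genes would hardly move them. Of 18008 genes, 32 were called for the number. The alternatives were DESeq2 1.42.0, the replicate number as a block, RLE size factors, a fit of the 9 libraries together, leaving out each library, no filter, and a minimum of 10 counts per library. The fit of the 9 libraries together with the block was added after seeing the data.

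The members and lists were chosen with earlier results of these data known. Values per library are given for the C type genes, the 4 genes of smallest p in VPA against vehicle in each of alpha, beta and gamma, the 3 of smallest p in VPA + Rapamycin against VPA, the 6 of smallest p for the replicate number and the most abundant gene of each cluster. The lists were 24 regulators of the loci, 13 partners, 11 protocadherins outside the clusters, flanking genes within 500 kb, pseudogenes, and markers of neurons, neural progenitors, neural crest and mesenchyme. The promoter motifs were chosen after the promoters had been seen.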

Additional observations from a re-analysis of the deposited data

How the results depend on the processing

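No call of a named member changed sign under any alternative. In VPA against vehicle the 8 calls were 7 to 11 under the alternatives that keep all libraries, the 11 (with PCDHGB4 and PCDHGB6) coming from all 9 libraries in 1 fit with the replicate block, and PCDHA13, PCDHB3 and PCDHB4 passed under all 13. With the replicate block the counts were 7, 6 and 2 in VPA against vehicle, VPA + Rapamycin against VPA and VPA + Rapamycin against vehicle, beside 8, 4 and 2 without it. The block rests on a number that no label ties to a clone. Deviations of same-numbered libraries had mean correlations of 0.000398 (vehicle and VPA), 0.0217 (VPA and VPA + Rapamycin) and 0.0985 (vehicle and VPA + Rapamycin) over all genes, with not every pair over 0.1. The 43 members among these genes with a mean of at least 10 reads gave 0.110, 0.289 and 0.283, and -0.0459, 0.0792 and 0.153 without PCDHGB4. With PCDHGB4 included, all 3 same-numbered pairs were over 0.1 in the last 2 of these comparisons and not in the first (lowest -0.119). The 4 calls of VPA + Rapamycin against VPA became 0 with all 9 libraries in 1 fit, 0 in the same fit with the replicate block (added after seeing the data), and 6 without a filter. In VPA + Rapamycin against vehicle, 3 were called without a filter. For the replicate number, 2 were called without a filter, the second being PCDHGB5. Leaving out 1 library at a time gave 3 to 12 calls in VPA against vehicle, 1 to 6 in VPA + Rapamycin against VPA, 0 to 3 in VPA + Rapamycin against vehicle and 1 to 2 for the replicate number. The lowest came without vehicle replicate 2, without VPA replicate 3 or VPA + Rapamycin replicate 3 (1 each), and without VPA + Rapamycin replicate 1 respectively. The shares of all genes called in these alternative fits are not given here, so whether the shifts are particular to the members cannot be told. The cause of these shifts was not tested. Depth limits the gamma A genes most, 8 of 12 of which averaged under 10 reads.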
